A study of Rattus norvegicus with 18 samples.

Results

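The genes described here are 10 regulators of apoptosis measured in rat blood, namely Bcl2, Bcl2l1, Mcl1, Bcl2l15, Bax, Bak1, Bcl2l11, Bid, Fas and Casp8. They were chosen by name, as the array probes whose transcript maps through RefSeq to one of these symbols. All 10 were measured, by 14 of the 18355 probes that carried a single gene symbol (15443 genes). Bcl2l1 had 4 probes, Fas had 2 and every other gene had 1. All 14 probes were well above background in Cy5 on 18 of 18 arrays, and none was saturated. Where a gene had several probes the brightest stands for it, and the others are given beside it.

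The series asked which cellular and genetic factors make rat strains differ in procainamide-induced autoimmunity. Blood was drawn from the venous sinus of the eye of male rats, so every sample is whole blood RNA from that site. Cy5 carried the sample and Cy3 carried, by the labels, control replicate 1 of the same strain. The groups were 4 arrays of Brown Norway (BN) rats given procainamide at 40 mg/kg, 4 of BN rats given sterile water, 5 of Sprague Dawley (SD) rats given procainamide at 40 mg/kg and 5 of SD rats given sterile water. Whether arrays come from separate animals is not stated in the labels, so p-values measure only the spread between these samples.

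In the mitochondrial route to apoptosis, anti-apoptotic BCL2 proteins hold the effectors BAX and BAK in check, and BH3-only proteins release that check so that the effectors open the outer mitochondrial membrane. In the receptor route, ligand binding to FAS recruits and activates caspase-8, which can cleave BID and so join the routes. In blood, neutrophils depend on MCL1 for survival, lymphocytes are culled through BIM (the product of Bcl2l11) and FAS, and maturing erythroid cells rely on BCL-XL (the product of Bcl2l1).

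The stretches upstream of an annotated transcript start are shown for Bak1, which had the drug call, for Bcl2l15, which had the largest strain difference of the 10 genes, and for Mcl1, whose strain difference reversed with scan day in the model. Each start lies inside the gene's full annotated span and not at its edge. Each line holds the 150 bases next to the start, 5′ to 3′ on the gene's strand, from RefSeq (GRCr8), and capitals mark the Sp1 core GGGCGG or its reverse complement CCGCCC. The windows lie at chr20:5110975-5111124 on the minus strand for Bak1, chr2:194027247-194027396 on the plus strand for Bcl2l15 and chr2:185908018-185908167 on the plus strand for Mcl1.
Bak1: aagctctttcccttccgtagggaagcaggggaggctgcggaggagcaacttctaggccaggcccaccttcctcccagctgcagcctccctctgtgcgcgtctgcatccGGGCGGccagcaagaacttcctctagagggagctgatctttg
Bcl2l15: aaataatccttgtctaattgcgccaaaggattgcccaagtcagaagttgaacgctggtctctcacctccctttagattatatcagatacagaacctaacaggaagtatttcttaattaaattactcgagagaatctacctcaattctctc
Mcl1: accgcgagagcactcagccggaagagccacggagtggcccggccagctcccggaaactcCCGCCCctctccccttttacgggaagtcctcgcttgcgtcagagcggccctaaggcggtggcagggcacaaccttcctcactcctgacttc
RefSeq promoters were matched for 8 of the 10 genes. Both strands of the 250 bases before each start were searched. The Sp1 core was present for Bak1, Bcl2l11, Bid, Fas and Mcl1, and 30.5% of 33469 rat promoters held it. The letters TATAAA were present for Bcl2 alone (12.9% of promoters), and the gamma-activated site TTCNNNGAA for Bcl2l1 alone (7.67% of promoters). The interferon response element was in none of the 8 (3.41% of promoters). The 250 bases of Bcl2l15 had a GC content of 41.6%, against 57.6% for Bak1, 62% for Mcl1 and a median of 51.2% over all promoters. These matches describe letters in a window and were not tested as sites.

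The arrays differed in brightness and in layout. The share of probes with Cy5 clearly over background spanned 73.4% to 87.1%. The median Cy5 intensity per array was 1694 to 3187 in BN procainamide, 997 to 1986 in BN control, 1446 to 2628 in SD procainamide and 2152 to 2876 in SD control. Slide 1 held all 5 SD control arrays and SD procainamide 1 to 3, slide 2 held all 4 BN control arrays and SD procainamide 4 and 5, and slide 3 held all 4 BN procainamide arrays. Scan day 1 covered slides 1 and 3 and scan day 2 covered slide 2, so treatment in BN cannot be told apart from slide. In neither strain comparison did the BN and SD arrays share a slide, so strain cannot be told apart from slide there. Control replicate 1 of each strain should carry the same RNA in both channels by the labels. The array labelled BN control 1 went against that, since its 6 measured erythroid markers had a mean log2 ratio of 1.40 and the SD of all its log2 ratios was 0.387, within the 0.317 to 0.433 of the other BN controls. SD control 1 had an SD of log2 ratios of 0.244, likewise within the 0.2 to 0.275 of the other SD controls. Results were therefore also computed without both control 1 arrays. White cell, erythroid and platelet markers were well above background on 18 of 18 arrays, apart from Cd28 (16 arrays) and Klrb1 (9 arrays). In whole blood, fewer cells of a type and less RNA per cell cannot be told apart.

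Procainamide changed 1 of the 10 genes in SD rats and none in BN rats by limma at an adjusted p under 0.05. Bak1 was higher in SD procainamide than in SD control, and no gene was lower. Across all 13616 named genes tested, the share called higher was 1.42% and lower 1.76% in SD. In BN the shares were 8.99% higher and 13.8% lower. At an unadjusted p under 0.05, 2 of the 10 passed in BN (Bcl2l15 and Fas) and 1 in SD (Bak1). Shares of all named genes, here and below, are at the adjusted threshold. None was computed for an unadjusted p, so the unadjusted counts have no share to be set against. The median log2 difference over the 10 was 0.027 in BN, with 5 positive, and -0.066 in SD, with 3 positive; over all named genes it was -0.019 in BN and -0.0073 in SD.

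**Figure D1:**
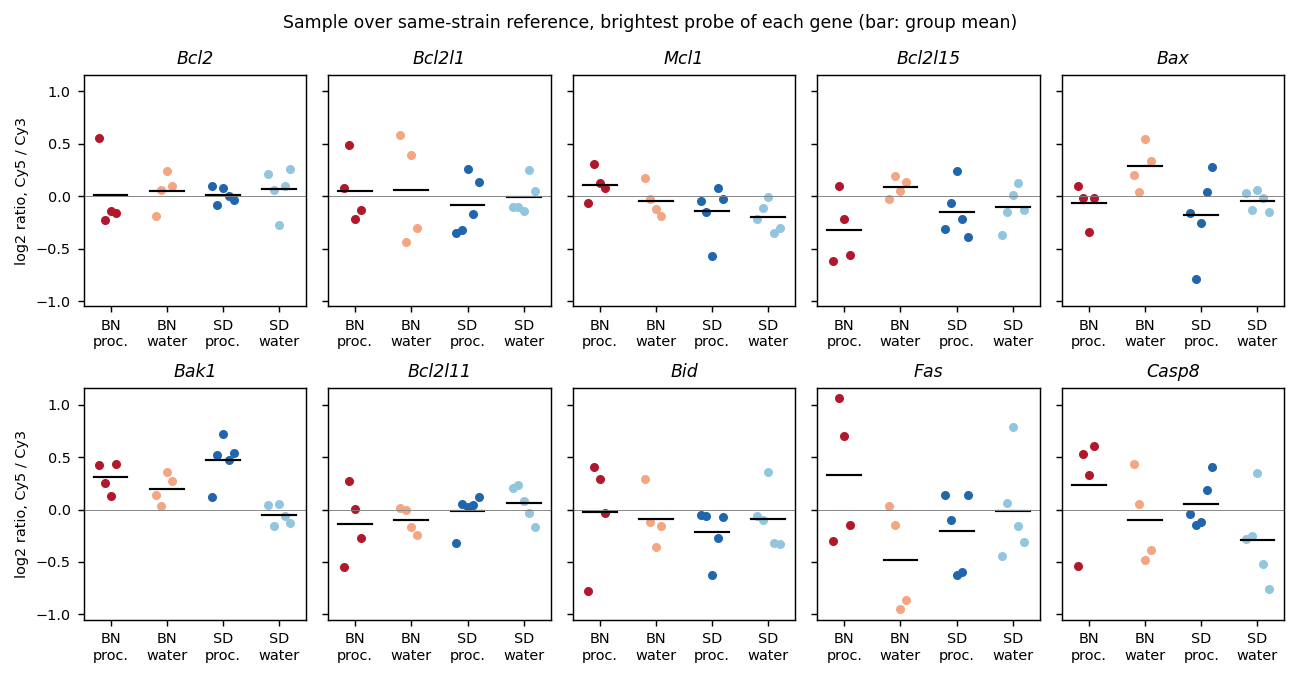
Log2 ratio of sample (Cy5) over same-strain reference (Cy3) for the brightest probe of each of the 10 genes; points are arrays, bars are group means and the water groups are the sterile-water controls. The 5 SD procainamide arrays of Bak1 lie between 0.12 and 0.72, above all SD controls, while the groups of Fas and Casp8 overlap widely.

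Among the anti-apoptotic genes, none of the brightest probes changed with the drug in either strain. Bcl2, the founding anti-apoptotic member, had log2 ratios of 0.56, -0.23, -0.14 and -0.16 in BN procainamide, against -0.19, 0.063, 0.24 and 0.10 in BN control. A single BN procainamide array stood high and the other 3 lay within or just below the BN control range; the fitted difference was -0.045 ± 0.15 (SE; limma adjusted p = 0.863). In SD the difference was -0.056 ± 0.14 (limma adjusted p = 0.882). Its log2 Cy5 intensity was nearly level over the groups, at 9.29 ± 0.42 in BN procainamide, 9.34 ± 0.10 in BN control, 9.36 ± 0.15 in SD procainamide and 9.46 ± 0.21 in SD control (SD).

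Mcl1, a short-lived anti-apoptotic protein needed by neutrophils and other blood cells, had log2 ratios of -0.069, 0.31, 0.13 and 0.075 in BN procainamide, against 0.17, -0.025, -0.12 and -0.19 in BN control. The groups overlapped, and the difference of 0.16 ± 0.13 did not pass (SE; limma adjusted p = 0.425). In SD the ratios were -0.041, -0.15, -0.57, 0.074 and -0.031 under procainamide, against -0.22, -0.11, -0.0047, -0.35 and -0.30 in controls. These overlapped as well, with a difference of 0.054 ± 0.12 (limma adjusted p = 0.865).

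Bcl2l1 encodes BCL-XL and, by splicing, a shorter pro-apoptotic form, and it is described by probe. The brightest probe, A_64_P054735, had log2 ratios of 0.075, 0.49, -0.22 and -0.13 in BN procainamide, against 0.58, -0.44, 0.39 and -0.30 in BN control. Its BN groups overlapped fully and the difference was -0.0042 ± 0.21 (SE; limma adjusted p = 0.992). The mean log2 ratio of the 6 measured erythroid markers (of 8 listed) on the same BN control arrays was 1.40, -1.69, -0.32 and -1.26; over groups it spanned -1.68 to -0.17 in BN procainamide and -1.69 to 1.40 in BN control. The part of erythroid RNA in the spread of Bcl2l1 was not tested. A_64_P008047, a second bright probe, gave -0.059 in BN and -0.015 in SD.

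The dim Bcl2l1 probe A_64_P054730 was lower under procainamide in BN. Its log2 ratios were 0.55, 0.49, 0.34 and 0.44 in BN procainamide, against 1.36, 0.78, 1.04 and 1.33 in BN control. All BN procainamide arrays lay below all BN controls, and the fitted difference was -0.68 ± 0.12 (SE), 1.60-fold lower, with a limma adjusted p of 0.00087. In SD the same probe had 0.46, 0.70, 0.79, 0.69 and 0.91 under procainamide, against 0.37, 0.44, 0.52, 0.55 and 0.40 in controls. The SD groups overlapped at the lowest treated array and the difference of 0.25 ± 0.11 did not pass (limma adjusted p = 0.232). The BN response minus the SD response was -0.93 ± 0.16 (limma adjusted p = 0.00233).

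Further values bear on that Bcl2l1 probe. It read 1.36 on the array labelled BN control 1 and 0.37 on SD control 1, where both channels hold the same RNA by the labels, and it was above 0 on 18 of 18 arrays. With scan day as a term in the model the BN difference was -0.52 (limma adjusted p = 0.26) and the difference between strains was -0.72 (limma adjusted p = 0.832). Without both control 1 arrays the BN difference was -0.60 (limma adjusted p = 0.00465). The other dim probe, A_44_P548065, had differences of -0.19 in BN (limma adjusted p = 0.374) and 0.35 in SD (limma adjusted p = 0.153). In BN, 4 of 6 measured platelet markers (of 7 listed) were lower under procainamide and 0 higher, with a median of -0.63. Of 6 eosinophil and basophil markers 3 were lower and 1 higher, with a median of -1.56. Of all named genes 13.8% were lower and 8.99% higher. The part of these cells in the Bcl2l1 values was not tested.

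Bcl2l15 encodes a less studied family member, known from mouse as Bfk. It was the one gene of the 10 with a large strain difference in probe signal (below). With the drug its log2 ratios were -0.62, 0.099, -0.22 and -0.56 in BN procainamide, against -0.031, 0.19, 0.051 and 0.14 in BN control. Of the BN procainamide arrays 3 were below every control and 1 lay among them. The difference of -0.41 ± 0.16 missed the threshold (SE; limma adjusted p = 0.0699), and passed it with replicate number as a block (0.0489) and without BN procainamide 2 (0.0178). In SD it was -0.049 ± 0.14 (limma adjusted p = 0.901).

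Of the effectors, Bak1 carried the SD response. Bak1, at chr20:5102334-5111615 (GRCr8), encodes BAK, which forms pores in the outer mitochondrial membrane. Its log2 ratios were 0.12, 0.52, 0.72, 0.47 and 0.54 in SD procainamide, against 0.042, -0.16, 0.05, -0.058 and -0.13 in SD control. All 5 treated arrays were above all 5 controls, although SD procainamide 1 was close to the highest control. The fitted difference was 0.52 ± 0.10 (SE), or 1.44-fold, with a limma adjusted p of 0.0118. Leaving out each array in turn gave 0.46 to 0.61 with adjusted p from 0.00344 to 0.0468.

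Within slide 1 alone, which holds both SD groups, the Bak1 difference was 0.50 (limma adjusted p = 0.0994), and with scan day as a term it was 0.50 (limma adjusted p = 0.0635). Its size was thus close to that over all SD arrays while its call was lost. Without both control 1 arrays it was 0.55 (limma adjusted p = 0.0239). On the SD arrays the erythroid marker mean spanned -0.72 to 0.60 under procainamide and -0.47 to 0.38 in controls. The platelet marker mean (6 of 7 measured, 0 called) spanned -0.68 to -0.21 under procainamide and -0.29 to 0.13 in controls. The part of these cells in the Bak1 difference was not tested.

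In BN, Bak1 had log2 ratios of 0.42, 0.25, 0.13 and 0.43 under procainamide, against 0.14, 0.03, 0.36 and 0.27 in controls. These overlapped, with a difference of 0.11 ± 0.12 (SE; limma adjusted p = 0.541). The BN response minus the SD response was -0.41 ± 0.16 (limma adjusted p = 0.0937), so the strains were not shown to differ, except that the adjusted p was 0.0215 without SD procainamide 1. The named genes whose log2 ratios over the 18 arrays were most like those of Bak1 were Sapcd2 (Pearson r 0.896) and Zbtb48 (r 0.89); the arrays of a strain share their reference.

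Bax, the other effector, had log2 ratios of 0.10, -0.021, -0.34 and -0.015 in BN procainamide, against 0.20, 0.044, 0.55 and 0.34 in BN control. The groups overlapped at a single array, and the difference of -0.35 ± 0.17 did not pass (SE; limma adjusted p = 0.156). In log2 Cy5 alone, without division by the reference, it was -0.47 (limma adjusted p = 0.00797). The BN reference of Bax, a single RNA by the labels, also differed, by -0.12 on slide 3 minus slide 2. In SD the difference was -0.14 ± 0.15 (limma adjusted p = 0.708).

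The BH3-only genes gave no call with the drug. Bcl2l11 encodes BIM, a direct activator of BAX and BAK, and its log2 ratios were -0.55, 0.27, 0.0012 and -0.27 in BN procainamide, against 0.011, -0.00065, -0.17 and -0.24 in BN control. The treated arrays spread to both sides of the controls (difference -0.039 ± 0.15, limma adjusted p = 0.878), and the SD difference was -0.082 ± 0.13 (limma adjusted p = 0.807). Bid, the substrate of caspase-8, had log2 ratios of -0.78, 0.41, 0.29 and -0.032 in BN procainamide, against 0.29, -0.12, -0.36 and -0.16 in BN control. Those groups overlapped as fully, with differences of 0.058 ± 0.22 in BN (limma adjusted p = 0.883) and -0.13 ± 0.20 in SD (limma adjusted p = 0.805).

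In the receptor route, Fas had the widest spread of the 10 genes within BN procainamide (SD 0.66). Its brightest probe, A_44_P463745, had log2 ratios of -0.30, 1.06, 0.70 and -0.15 in BN procainamide, against 0.031, -0.15, -0.95 and -0.86 in BN control. Of the treated arrays 2 were above all controls and 2 lay among them; the difference of 0.81 ± 0.32 did not pass (SE; limma adjusted p = 0.0842). It passed without BN procainamide 1 (0.0347) and in log2 Cy5 alone (0.97, limma adjusted p = 0.024). The BN reference of this probe also differed, by 0.16 on slide 3 minus slide 2. The second Fas probe, A_64_P131736, had 0.24, 0.22, 0.28 and -0.45 in BN procainamide, against -0.01, 0.032, 0.51 and -0.049 in BN control. The high arrays of the first probe were not set apart here, and the difference was -0.05 ± 0.16 (limma adjusted p = 0.855).

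On BN procainamide 1 to 4 the mean log2 ratio of the 6 monocyte markers was -0.28, 0.37, 0.68 and -0.33, and that of the 9 neutrophil markers was -0.72, 0.58, 0.78 and 0.36. The 2 arrays with high Fas ratios had the highest values of both lists among these 4 arrays. Over groups the monocyte mean spanned -0.33 to 0.68 in BN procainamide and -0.35 to 0.16 in BN control, and the neutrophil mean spanned -0.72 to 0.78 in BN procainamide and -0.55 to 0.12 in BN control. Their part in the Fas values was not tested. In SD, Fas had 0.14, -0.099, -0.62, -0.60 and 0.14 under procainamide, against -0.44, 0.058, 0.79, -0.16 and -0.31 in controls. These overlapped, with a difference of -0.19 ± 0.29 (SE; limma adjusted p = 0.79).

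Casp8 encodes the initiator caspase of the receptor route. Its log2 ratios were -0.54, 0.53, 0.33 and 0.61 in BN procainamide, against 0.43, 0.049, -0.48 and -0.39 in BN control. In SD they were -0.043, -0.15, -0.12, 0.19 and 0.41 under procainamide, against -0.28, -0.25, 0.35, -0.52 and -0.76 in controls. Both pairs of groups overlapped, and the differences were 0.33 ± 0.26 in BN (SE; limma adjusted p = 0.394) and 0.35 ± 0.23 in SD (limma adjusted p = 0.483). The 95% intervals ran from -0.22 to 0.88 in BN and from -0.14 to 0.84 in SD, and both included 0.

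The test of the difference between the responses called none of the 10 genes by limma, against 3.15% of named genes with a higher and 7.54% with a lower response in BN. At an unadjusted p under 0.05 it passed 2 (Bak1 and Fas). The responses share no arrays, since each strain had its own controls.

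**Figure D2:**
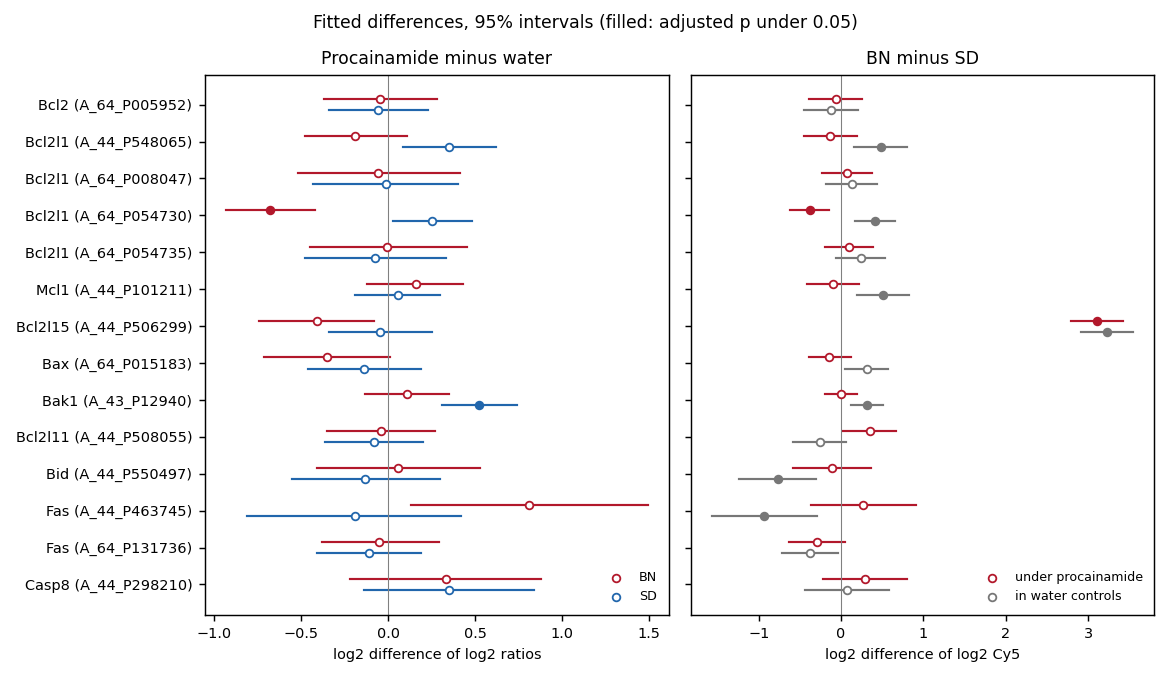
Fitted log2 differences with 95% intervals for all 14 probes, procainamide minus water in each strain on the left and BN minus SD on the right. Filled points have a limma adjusted p under 0.05; the strain difference of Bcl2l15, 3.11 under procainamide and 3.23 in controls, stands apart from all others.

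Between the strains, Bcl2l15 was higher in BN under both treatments, 8.61-fold with procainamide and 9.37-fold in controls. In controls 3 of the 10 genes were higher in BN (Bcl2l15, Mcl1 and Bak1) and 2 were lower (Bid and Fas). Of all named genes 16.6% were higher and 20.1% lower in BN controls, so the count of 5 was close to the background. Under procainamide Bcl2l15 alone was called, higher in BN, where 9.46% of named genes were higher and 9.75% lower. At an unadjusted p under 0.05, 6 of the 10 passed in controls and 2 under procainamide (Bcl2l15 and Bcl2l11). These comparisons used log2 Cy5 intensity, since the references of the strains are different RNA. The BN and SD arrays compared lay on different slides, so strain and slide cannot be told apart in log2 Cy5.

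Bcl2l15 lies at chr2:194019158-194032516 (GRCr8). Its log2 Cy5 was 10.29, 11.06, 10.77 and 10.37 in BN procainamide, against 7.31, 7.58, 7.92, 7.45 and 7.31 in SD procainamide. In controls it was 10.83, 10.85, 10.70 and 10.82 in BN, against 7.33, 7.52, 7.66, 7.83 and 7.52 in SD. The lowest BN array was more than 2 log2 units above the highest SD array. The gene had 1 probe with 1 spot, and its signal in SD was dim. Whether the probe binds the RNA of both strains alike was not tested. The fitted difference was 3.11 ± 0.15 under procainamide (SE; 8.61-fold, limma adjusted p = 3.92e-10) and 3.23 ± 0.15 in controls (9.37-fold, limma adjusted p = 2.17e-10).

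The reference channel, which the fit of log2 Cy5 does not test, showed the same separation of Bcl2l15. The BN reference read 10.65 to 10.86 on slide 2 and 10.91 to 10.99 on slide 3, and the SD reference read 7.62 to 7.70 on slide 1 and 7.68 to 7.71 on slide 2. On slide 2, which held both references, BN minus SD was 3.02. The difference with scan day in the model was 3.02 under procainamide (limma adjusted p = 1.59e-08) and 3.45 in controls (limma adjusted p = 9.78e-07). From the scanner software's processed Cy5 signal it was 3.99 under procainamide and 3.95 in controls, a larger value by over 1.5 times in fold. Without both control 1 arrays the difference in controls was 3.16.

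**Figure D3:**
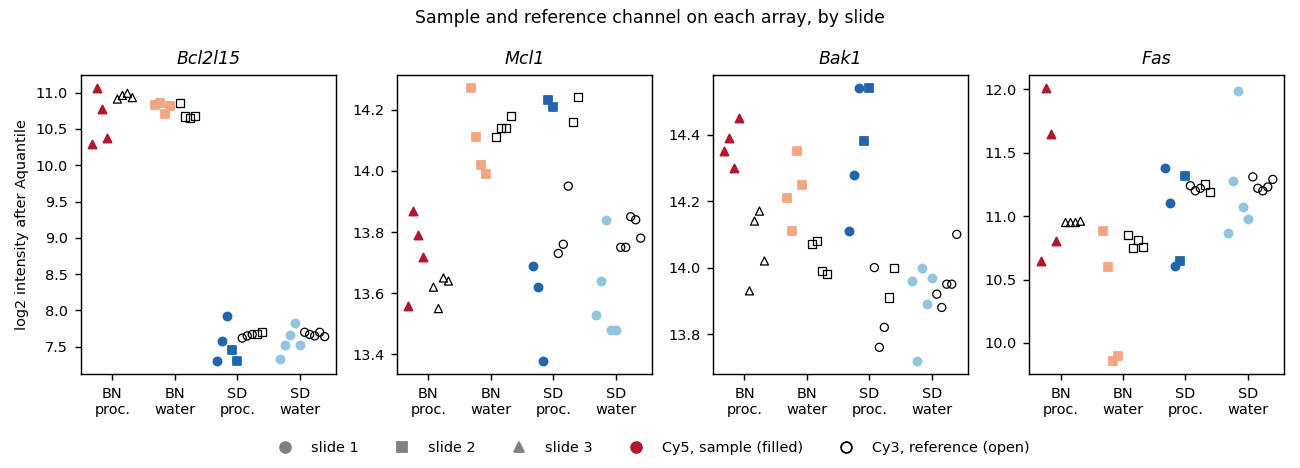
Log2 intensity of the sample (Cy5, filled) and of the same-strain reference (Cy3, open) on each array for the brightest probes of Bcl2l15, Mcl1, Bak1 and Fas; colour gives the group and shape the slide, and each panel has its own axis. Bcl2l15 separates by strain in both channels, whereas Mcl1 is highest on slide 2 in both channels and both strains.

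Mcl1, at chr2:185884840-185912532 (GRCr8), differed between slides within a strain, and in BN slide and treatment cannot be told apart. Its log2 Cy5 was 14.27, 14.11, 14.02 and 13.99 in BN control, against 13.53, 13.64, 13.84, 13.48 and 13.48 in SD control. The groups did not overlap, and the difference was 0.51 ± 0.15 (SE; limma adjusted p = 0.0142). It was 0.43 without both control 1 arrays (limma adjusted p = 0.0712) and -0.15 with scan day as a term (limma adjusted p = 0.736), which reversed its direction. The SD procainamide arrays on slide 1 read 13.69, 13.62 and 13.38, and those on slide 2 read 14.23 and 14.21. The SD reference, the same RNA by the labels, was 0.40 higher on slide 2 than on slide 1, and the BN reference was 0.52 lower on slide 3 than on slide 2 (a log2 difference of -0.52). Under procainamide BN minus SD was -0.094 ± 0.15 (limma adjusted p = 0.70).

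Bak1 was higher in BN than in SD controls, at 14.21, 14.11, 14.35 and 14.25 log2 Cy5 in BN, against 13.96, 13.72, 14, 13.89 and 13.97 in SD. The groups did not overlap, with a difference of 0.32 ± 0.092 (SE; limma adjusted p = 0.0124). It was 0.17 with a scan day term (limma adjusted p = 0.667). In the reference channel BN minus SD was 0.075 within slide 2 and 0.14 between slides 3 and 1. Under procainamide the strains were level, at 14.37 ± 0.065 in BN and 14.37 ± 0.18 in SD (SD; n = 4 and 5 arrays), with a difference of 0.0012 and a 95% interval of -0.19 to 0.20.

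Bid was lower in BN than in SD controls, at 11.44, 10.87, 10.63 and 10.67 log2 Cy5 in BN, against 11.73, 11.66, 12.13, 11.37 and 11.48 in SD. A single BN array reached into the SD range, and the difference was -0.77 ± 0.22 (SE; limma adjusted p = 0.0118), 1.71-fold lower. A scan day term gave -0.65 (limma adjusted p = 0.495), and an array brightness term -0.22 (limma adjusted p = 0.593). The reference channel, a single RNA per strain by the labels, was also lower in BN, by a log2 difference of -0.49 within slide 2 and -0.43 between slides 3 and 1. It also differed by slide within a strain. The SD reference on slide 2 minus slide 1 was -0.25, and the BN reference on slide 3 minus slide 2 was 0.31. Under procainamide BN minus SD was -0.11 ± 0.22 (limma adjusted p = 0.763).

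Fas was lower in BN than in SD controls by its brightest probe, at 10.88, 10.60, 9.86 and 9.90 log2 Cy5 in BN, against 10.87, 11.28, 11.99, 11.07 and 10.98 in SD. A single BN array exceeded the lowest SD array, and the difference was -0.93 ± 0.30 (SE; limma adjusted p = 0.0231). A scan day term gave -0.89 (limma adjusted p = 0.497). Leaving out each array in turn gave -1.12 to -0.74 with adjusted p from 0.0113 to 0.0784. The second Fas probe had -0.38 ± 0.16 (limma adjusted p = 0.0727). In the reference channel within slide 2, BN minus SD was -0.43 for the brightest probe and -0.58 for the second.

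The dim Bcl2l1 probe A_64_P054730 also differed between the strains, in opposite directions by treatment. Under procainamide its log2 Cy5 was 8.09, 8.10, 7.90 and 8.05 in BN, against 8.33, 8.41, 8.64, 8.20 and 8.48 in SD. Those groups did not overlap, with a difference of -0.38 ± 0.11 (SE; limma adjusted p = 0.0277), and over the arrays of scan day 1 alone it was -0.43 (limma adjusted p = 0.0299). In controls the difference was 0.41 ± 0.11 (limma adjusted p = 0.00973), and 0.53 with scan day as a term (limma adjusted p = 0.215). In the reference channel of A_64_P054730, which holds control RNA by the labels, BN on slide 3 minus SD on slide 1 was -0.26, BN minus SD within slide 2 was 0.045, and SD on slide 2 minus slide 1 was -0.30. The dim probe A_44_P548065 was also higher in BN controls, by 0.48 ± 0.15 (limma adjusted p = 0.0208), with no overlap. The brightest Bcl2l1 probe had 0.099 ± 0.14 under procainamide and 0.24 ± 0.14 in controls, and neither passed (limma adjusted p = 0.649 and 0.185).

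Among the genes not called between strains, Bax averaged 13.95 ± 0.21 in BN procainamide, 14.42 ± 0.14 in BN control, 14.09 ± 0.23 in SD procainamide and 14.11 ± 0.12 in SD control (log2 Cy5, SD). Its BN controls lay above all SD controls, but the difference of 0.31 ± 0.12 just missed the threshold (SE; limma adjusted p = 0.0531). Bcl2l11 averaged 9.24 ± 0.32 in BN procainamide, 8.89 ± 0.18 in BN control, 8.89 ± 0.20 in SD procainamide and 9.15 ± 0.23 in SD control (log2 Cy5, SD). Under procainamide BN minus SD was 0.35 ± 0.15 (limma adjusted p = 0.113). In the reference channel of Bcl2l11, BN minus SD was 0.31 between slides 3 and 1 and 0.26 within slide 2. The SD reference on slide 2 minus slide 1 was -0.33, and the BN reference on slide 3 minus slide 2 was 0.39. Casp8 averaged 10.97 ± 0.49 in BN procainamide, 10.49 ± 0.44 in BN control, 10.68 ± 0.11 in SD procainamide and 10.42 ± 0.45 in SD control (log2 Cy5, SD), and all pairs of groups overlapped.

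**Figure D4:**
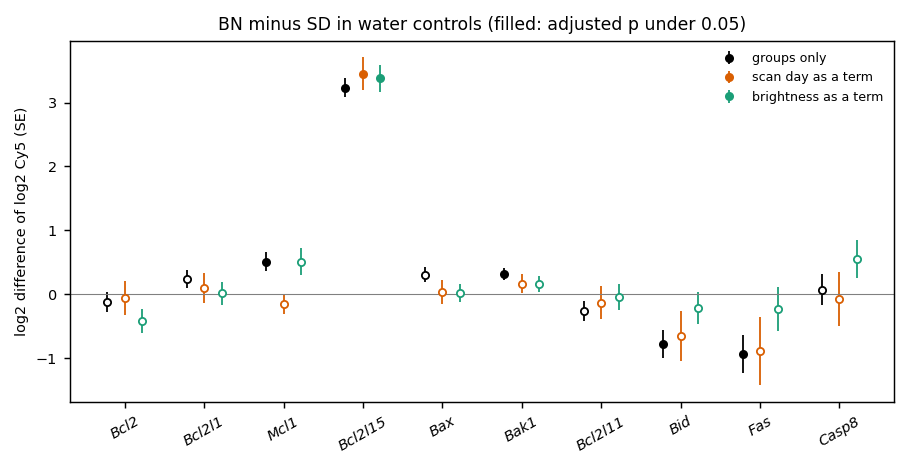
BN minus SD in water controls (log2 Cy5, with SE) for the 10 genes with group means alone and with scan day or array brightness added as a term. Only Bcl2l15 has a filled point (limma adjusted p under 0.05) in all 3 models; Mcl1 has 0.51 with group means alone and -0.15 with scan day added.

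Of the 54 other genes of the pathway that were listed, 50 were measured. In BN procainamide 12 of these rose and 5 fell, against 8.99% and 13.8% of all named genes, with a median log2 difference of 0.19. At an unadjusted p under 0.05, 20 were higher and 8 lower in BN, with no share of all named genes computed at that cutoff. In SD procainamide 3 rose and none fell by limma (8 higher and 2 lower at an unadjusted p under 0.05), with a median of 0.07. Of all named genes 1.42% rose and 1.76% fell in SD at the adjusted threshold. The lists were chosen with earlier results of these data known, so their counts are a description. After scan day was added to the model, 1 of the 50 was called in BN (Birc3, 0.86 ± 0.17, limma adjusted p = 0.0255) and 1 in SD (Ripk3, 0.66 ± 0.13, limma adjusted p = 0.0272), where 0.83% and 1.14% of named genes were called in either direction.

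Of the ligands of the receptor route Tnf and Faslg rose in BN, and Tnfsf10, which encodes TRAIL, had a difference of 0.038 ± 0.15 (SE; limma adjusted p = 0.886). Tnf, an inflammatory ligand of TNF receptors, averaged a log2 ratio of 1.34 ± 0.21 in BN procainamide and 0.05 ± 0.29 in BN control (SD, n = 4 each), a difference of 1.29 ± 0.20 (SE; limma adjusted p = 0.000315). Faslg, the ligand of FAS, averaged 0.91 ± 0.53 in BN procainamide and -0.24 ± 0.41 in BN control, a difference of 1.15 ± 0.23 (limma adjusted p = 0.00186). Tnfrsf1b, a TNF receptor without a death domain, rose by 0.33, and Tnfrsf21, a death receptor, had a difference of -0.36. In SD Tnf and Faslg did not pass, with 0.40 for Tnf (limma adjusted p = 0.258) and 0.57 for Faslg (limma adjusted p = 0.148). For Faslg the SD groups did not overlap, while the BN groups did. The BN response of Faslg minus the SD response was 0.58 (limma adjusted p = 0.232), so the strains were not shown to differ. A scan day term gave Tnf differences of 0.65 in BN (limma adjusted p = 0.314) and 0.65 in SD (limma adjusted p = 0.0787). For Faslg it gave 0.86 in BN (limma adjusted p = 0.352) and 0.69 in SD (limma adjusted p = 0.197).

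Beside these ligands, 1 of 5 NK cell markers, 1 of 8 T cell markers and 3 of 3 measured plasma cell markers (of 4 listed) were higher in BN procainamide and none was lower, against 8.99% of all named genes higher. The NK marker mean spanned -0.38 to 0.25 in BN procainamide and -0.43 to 0.051 in BN control, and the T cell mean -0.046 to 0.26 in BN procainamide and -0.35 to -0.0097 in BN control. The plasma cell mean spanned 0.13 to 1.08 in BN procainamide and -0.64 to 0.17 in BN control. Among 6 monocyte markers 1 was higher and none lower in BN procainamide, with a median of 0.034. Among 9 neutrophil markers 1 was higher and none lower, with a median of 0.76. Their part in the ligand values was not tested.

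Downstream of the receptors, Ripk1 and Ripk3 rose in both strains. Ripk1, a kinase recruited to TNF receptors, had differences of 0.41 in BN (limma adjusted p = 0.00662) and 0.40 in SD (limma adjusted p = 0.0226). Ripk3, the kinase of necroptosis, had 0.53 in BN (limma adjusted p = 0.0085) and 0.57 in SD (limma adjusted p = 0.0147). Cflar, an inhibitor of caspase-8 activation, rose in BN by 0.89 ± 0.17 (SE; limma adjusted p = 0.00145) and had 0.25 in SD (limma adjusted p = 0.427).

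At the mitochondrial step and beyond, Htra2, a released protease, rose by 0.47 in BN. Casp6, an executioner caspase, rose by 0.39 in its log2 ratio (limma adjusted p = 0.00547). Its log2 Cy5 went the other way, at 12.05 ± 0.12 in BN procainamide and 12.32 ± 0.28 in BN control (SD). A scan day term gave a Casp6 difference of 0.088 in BN (limma adjusted p = 0.821). Birc3, an inhibitor of apoptosis protein induced by NF-kappaB, rose by 0.61 in BN (limma adjusted p = 0.0012). Of the 12 other BCL2 family genes measured, none rose in BN (2 at an unadjusted p under 0.05) and 3 fell. Of all named genes 8.99% rose and 13.8% fell in BN at the adjusted threshold. Those that fell were the BH3-only genes Hrk (-0.62, limma adjusted p = 0.0218) and Bad (-0.34, limma adjusted p = 0.049). Bok, an effector-like gene, also fell (-0.30, limma adjusted p = 0.0471). The BN groups of Bad and Bok overlapped, and those of Hrk did not. With scan day as a term the limma adjusted p was 0.847 for Hrk, 0.696 for Bad and 0.405 for Bok. Of the p53 group, Mdm4, an inhibitor of p53, rose by 0.76 in BN, and Ccng1, a p53 target, had a difference of -0.98 (limma adjusted p = 0.0289).

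**Figure D5:**
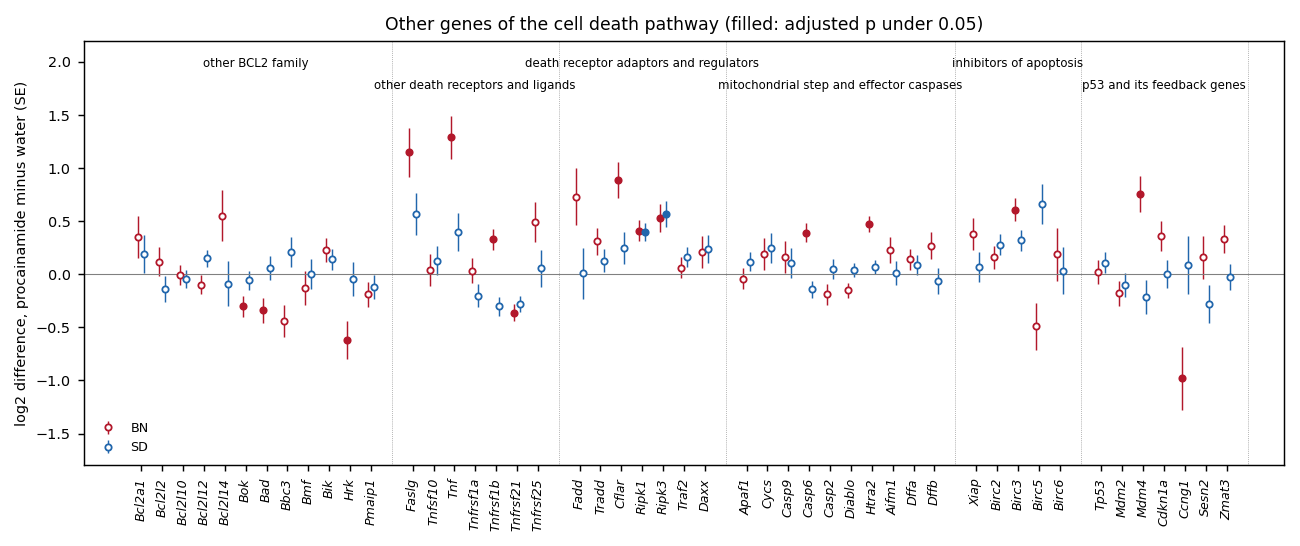
Log2 difference, procainamide minus water, with SE, for other pathway genes measured, BN in red and SD in blue, grouped by role; filled points have a limma adjusted p under 0.05. Tnf (1.29) and Faslg (1.15) are the highest BN values and Ccng1 (-0.98) the lowest, while the filled SD points are Ripk1 and Ripk3.

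Between the strains, 10 of the 50 were higher and 8 lower in BN controls, against 16.6% and 20.1% of all named genes. Birc5, an inhibitor of apoptosis of dividing cells, was higher by 1.37 ± 0.19 (SE; limma adjusted p = 8.1e-05), and Ccng1 by 1.43 ± 0.27 (limma adjusted p = 0.00067). Apaf1, the scaffold of the apoptosome, was higher by 0.68 (limma adjusted p = 0.000403), and Bbc3, which encodes the BH3-only protein PUMA, by 0.44 (limma adjusted p = 0.0079). In the model with scan day none of these 18 calls remained, and with array brightness 4 did, namely Birc5 (0.88), Ccng1 (1.78), Apaf1 (0.51) and Htra2 (-0.31).

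Under procainamide 7 of the 50 were higher in BN than in SD and none was lower by limma, against 9.46% and 9.75% of all named genes. At an unadjusted p under 0.05, 13 were higher and 2 lower. The share of all named genes at that cutoff was not computed. After scan day was added to the model 3 of the 7 still passed, where 10.2% of named genes were called in either direction: Bik, a BH3-only gene (0.73 ± 0.11, and 0.76 with the term), Mdm4 (0.72 ± 0.16, and 0.55) and Htra2 (0.32 ± 0.066, and 0.24). Of the neutrophil markers 7 of 9 were higher in BN than in SD under procainamide, with a list mean in log2 Cy5 of 11.14 to 12.35 in BN and 10.42 to 11.18 in SD. Their part in these strain differences was not tested.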

How the data were processed

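Values of 18 blood samples on 2-colour arrays were used. Per the file headers, Feature Extraction 10.7.1.1 wrote median spot and background intensities that were not normalized. It also wrote intensities with background removed and dyes balanced, and log10 ratios of these, Cy5 over Cy3, per the file headers. A table of log2 ratios deposited by the authors has a scale and centring that are unstated; set against the scanner's ratios they had slope 1, so they are uncentred log2 Cy5 over Cy3, with array medians from -0.014 to 0.0653. The filter behind its 25602 probes is not given in the sources used here.

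In R 4.3.3 with limma 3.58.1, median intensities were corrected by normexp (offset 50), which shrinks differences of dim probes, and normalized by loess within arrays, with Aquantile added for log2 Cy5. Control spots and spots the software set aside as outliers were dropped, and spots of a probe were averaged; where this would have dropped every spot (0.0741% of values) all were kept. The 26446 of 30367 probes whose Cy5 was well above background on 4 or more arrays were tested. A 4-group model over all arrays (14 residual degrees of freedom, eBayes, 2-sided) gave each contrast, with Benjamini-Hochberg adjustment over all probes at 0.05. The brightest probe stood for a gene. The fit was tested on simulated data. Precision is limited by the number of arrays.

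The genes and lists were chosen with earlier results of these data known. All 10 genes are named; other pathway genes are named where they passed, at most 4 of smallest p per sublist and comparison, except some that are counted but not reported here, and likeness is the highest Pearson correlation with a gene called in a drug response. Replicate numbers are shared between groups, but same-numbered arrays did not deviate together (correlations -0.523 to 0.129), so they were not treated as pairs. The scan-day term rests on the 5 SD procainamide arrays, which alone span both days. Alternatives covered background, filter, scaling, batch terms, replicate block and left-out arrays.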

Additional observations from a re-analysis of the deposited data

Results flagged for a closer look

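Among 112 checks of a probe, group and scale, 5 had an array far from the rest of its group, where chance flags about 1 in 20 groups. BN procainamide 1 stood high for Bcl2 at a log2 ratio of 0.56, and SD procainamide 1 stood low for Bcl2l11 at -0.32. The second Fas probe, A_64_P131736, was low on BN procainamide 4, at a log2 ratio of -0.45 and a log2 Cy5 of 9.32, and high on BN control 3 at a log2 ratio of 0.51.

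The BN response differed from the SD response by limma's interaction test for the dim Bcl2l1 probe A_64_P054730 (-0.93) and for 6 of the 50 other pathway genes, namely Tnf (0.89), Tnfrsf1b (0.63), Casp6 (0.53), Htra2 (0.40), Mdm4 (0.97) and Birc5 (-1.16). With scan day as a term the Bcl2l1 probe had -0.72 (limma adjusted p = 0.832) and none of these 6 genes passed. The differences in that model were -0.002 for Tnf, 0.45 for Tnfrsf1b, 0.11 for Casp6, 0.44 for Htra2, 0.56 for Mdm4 and -1.08 for Birc5. Slide and treatment cannot be told apart in BN.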

How the results depend on the processing

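The counts of called genes among the 10 changed as follows. For the BN response (0), calling a gene from any of its probes gave 1, log2 Cy5 alone gave 2 (Bax and Fas), the replicate block gave 1 (Bcl2l15), and leaving out each array in turn gave 0 to 1. For the SD response (1, Bak1), scan day as a term and slide 1 alone each gave 0, and leaving out arrays 1 to 1. For the difference between responses (0), any probe gave 1, log2 Cy5 alone 3 (Mcl1, Bcl2l11 and Fas), and leaving out arrays 0 to 1 (Bak1, without SD procainamide 1). For BN against SD in controls (5), scan day as a term, array brightness as a term and slide as a random block each gave 1, namely Bcl2l15, and leaving out arrays gave 4 to 7. Under procainamide (1), any probe gave 2 and leaving out arrays 1 to 2 (Bcl2l11, without BN procainamide 1). The cause was not tested.

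Mcl1 reversed in BN against SD controls with scan day as a term (-0.15, adjusted p = 0.736) and in the difference between responses with log2 Cy5 alone (-0.60, adjusted p = 0.0383, against 0.10). The replicate block changed no other count by over 1.5 times. The groups of the comparison alone cannot give the difference between responses, which needs all 4. The scaling and filter alternatives kept the call and direction of Bcl2l15 in both strain comparisons and of Bak1 in SD. Groups of 4 or 5 arrays limit the precision.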
